A study of Mus musculus with 22 samples.

Results

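The Hox genes encode the homeodomain transcription factors that give the segments of the body axis their identity. They were taken as every gene whose symbol is Hox, a cluster letter from a to d and a number, which gave 39 genes of the 22366 protein-coding genes of the annotation (11 Hoxa, 10 Hoxb, 9 Hoxc and 9 Hoxd). DNA methylation of these genes was measured by whole-genome bisulphite sequencing in wild-type and Rlf MommeD28/MommeD28 mice, which are homozygous for a null allele of Rlf, a gene for a protein with widely spaced zinc fingers. There were 2 wild-type and 2 mutant samples of E10.5 whole embryo (all male), of E14.5 liver (replicate 1 male and replicate 2 female in each genotype) and of E18.5 liver (all female). Expression was measured by RNA-seq in 3 wild-type and 3 mutant E14.5 livers, with replicates 1 and 2 male and replicate 3 female. All mice were of an inbred FVB/NJ line, Line3, homozygous for a multicopy GFP transgene under a human alpha-globin promoter with its HS-40 enhancer. Controls and mutants alike therefore carry that transgene, and the mutation arose by ENU mutagenesis. Tissue and embryonic day change together between embryo and liver and cannot be told apart. Per the study the methylation data of E14.5 liver come from littermates, and the labels give no litter for the other samples, so p-values measure only the spread between these samples. H3K4me1 ChIP-seq was not analysed here.

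In mammals the 39 genes lie in 4 clusters, and all genes of a cluster are read in the same direction. Genes at the end with low numbers act early and anteriorly, in the hindbrain and neck, and genes at the end with high numbers act later and posteriorly, in the tail, the distal limbs and the urogenital tract. Silent Hox genes are covered by Polycomb proteins and H3K27me3, and their CpG-rich DNA is usually free of methylation whether the genes are expressed or not. DNA methylation places a methyl group on the cytosine of a CpG, and bisulphite converts only unmethylated cytosines, so the share of unconverted reads gives the methylation of a CpG.

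The libraries held 319866478 to 363002202 read calls at CpGs of the assembled chromosomes in E10.5 embryo, 628996114 to 710952704 in E14.5 liver and 346349747 to 357281665 in E18.5 liver. Unconverted reads over lambda DNA, which is unmethylated, made up 0.0412% to 0.0775%. The genome as a whole had a mean methylation in the mutants of 73.6% ± 0.502 (SD, n = 2) against 71.3% ± 0.968 in E10.5 embryo, 59.7% ± 0.771 against 57.4% ± 1.48 in E14.5 liver and 63.5% ± 2.89 against 61.6% ± 0.226 in E18.5 liver. In the last group mutant replicate 1 had 65.5% and replicate 2 had 61.4%, which lay between the wild-types. The RNA-seq libraries held 12928313 to 14621004 counts. Rlf itself had 918, 1094 and 982 counts in wild-type and 983, 1106 and 963 in mutant livers, and a count cannot check a point mutation. Over the windows defined next, Hox CpGs had on average 12.4 to 45.3 reads per library in E10.5 embryo, 20.7 to 68.5 in E14.5 liver and 13.9 to 35.7 in E18.5 liver.

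Methylation was read over 1 kb to either side of the annotated transcriptional start site (a window) and over adjoining 1 kb tiles across each cluster, as the share of reads called methylated, in percent, at CpGs that each of the 12 libraries covered with 6 reads or more. At least 8 such CpGs were required, which left 38 Hox windows of 18889 and 311 of 496 Hox tiles of 581526. Hoxc4 had too few covered CpGs at its start site and has no window value. Coordinates are those of mm9 (NCBIM37), counted from 1.

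Sequences of 2 stretches that carry main results are printed 5′ to 3′ on the strand of the Hox gene, with every CpG in capitals. The stretch beside Hoxd1 (chr2:74599692-74599891, plus strand, 4 CpGs) lies upstream of its start site and within the tile with the largest called average genotype difference. The Hoxb3 stretch is intronic (chr11:96187374-96187573, plus strand, 16 CpGs) and was unmethylated in the embryo and about evenly methylated and unmethylated in liver.
Hoxd1 upstream: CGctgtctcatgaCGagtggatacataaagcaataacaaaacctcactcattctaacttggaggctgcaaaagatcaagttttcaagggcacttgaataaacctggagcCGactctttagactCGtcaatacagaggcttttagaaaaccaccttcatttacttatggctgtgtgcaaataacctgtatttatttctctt
Hoxb3 intron: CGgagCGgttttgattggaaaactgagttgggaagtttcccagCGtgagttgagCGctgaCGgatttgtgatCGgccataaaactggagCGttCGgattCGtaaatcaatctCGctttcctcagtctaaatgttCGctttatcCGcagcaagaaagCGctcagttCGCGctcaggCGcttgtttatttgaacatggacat

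The Hoxb3 stretch went from 0.503% to 1.79% in the 4 embryos to 44.4% to 51.4% in the 4 E14.5 livers. Both stretches are the 200 bases with most covered CpGs within tiles described further on.

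Most Hox start sites were almost free of methylation in wild-type samples of all 3 tissues. The median over the 38 windows was 0.791% in E10.5 embryo, 2.14% in E14.5 liver and 2.24% in E18.5 liver, where all 18889 windows had medians of 5.69%, 6.30% and 5.88%. Under 5% lay 35, 31 and 31 of the 38 Hox windows, against 47.7%, 45.4% and 46.9% of all windows. The Hox windows are CpG-rich, with a median of 80 reference CpGs and a GC content of 54.5%, but the other windows had close values of 72 and 52.5%. By the mean over the 12 libraries, Hoxd3 (0.620%), Hoxb7 (0.666%) and Hoxd8 (0.790%) were lowest, and Hoxb3 (29.3%), Hoxd4 (28.4%) and Hoxb4 (24.6%) were highest. The windows of these 3 highest genes held only 13, 13 and 8 covered CpGs, and 23, 23 and 26 reference CpGs. They are thus CpG-poor beside the Hox median of 80. All 3 genes belong to the paralogue groups that pattern the hindbrain and neck. The annotated start of Hoxb7 lies within the annotated Hoxb8 gene, and that of Hoxd4 within the annotated Hoxd3 gene. Some annotated starts lie far from the part that encodes the homeodomain. Hoxb3 starts at chr11:96184640 and that part lies near chr11:96207023-96207222, and for Hoxd3 these are chr2:74549986 and chr2:74584458-74584657. The annotation holds 2 overlapping gene models named Hoxa3 whose starts lie 3 bp apart, and the one with the longer exons was used. It reaches past Hoxa4, Hoxa5 and Hoxa6, so values at the Hoxa3 start are those of this distant start. Tiles named for Hoxa3 can lie beside those genes. The Hoxa3 and Hoxa6 windows overlap only at their edges (chr6:52162335-52162355). For Hoxa6, Hoxa7, Hoxa9, Hoxa10, Hoxc4, Hoxc6 and Hoxd11 the annotated start lies 2607 to 15459 bp from that of the transcript with the longest coding sequence.

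**Figure D1:**
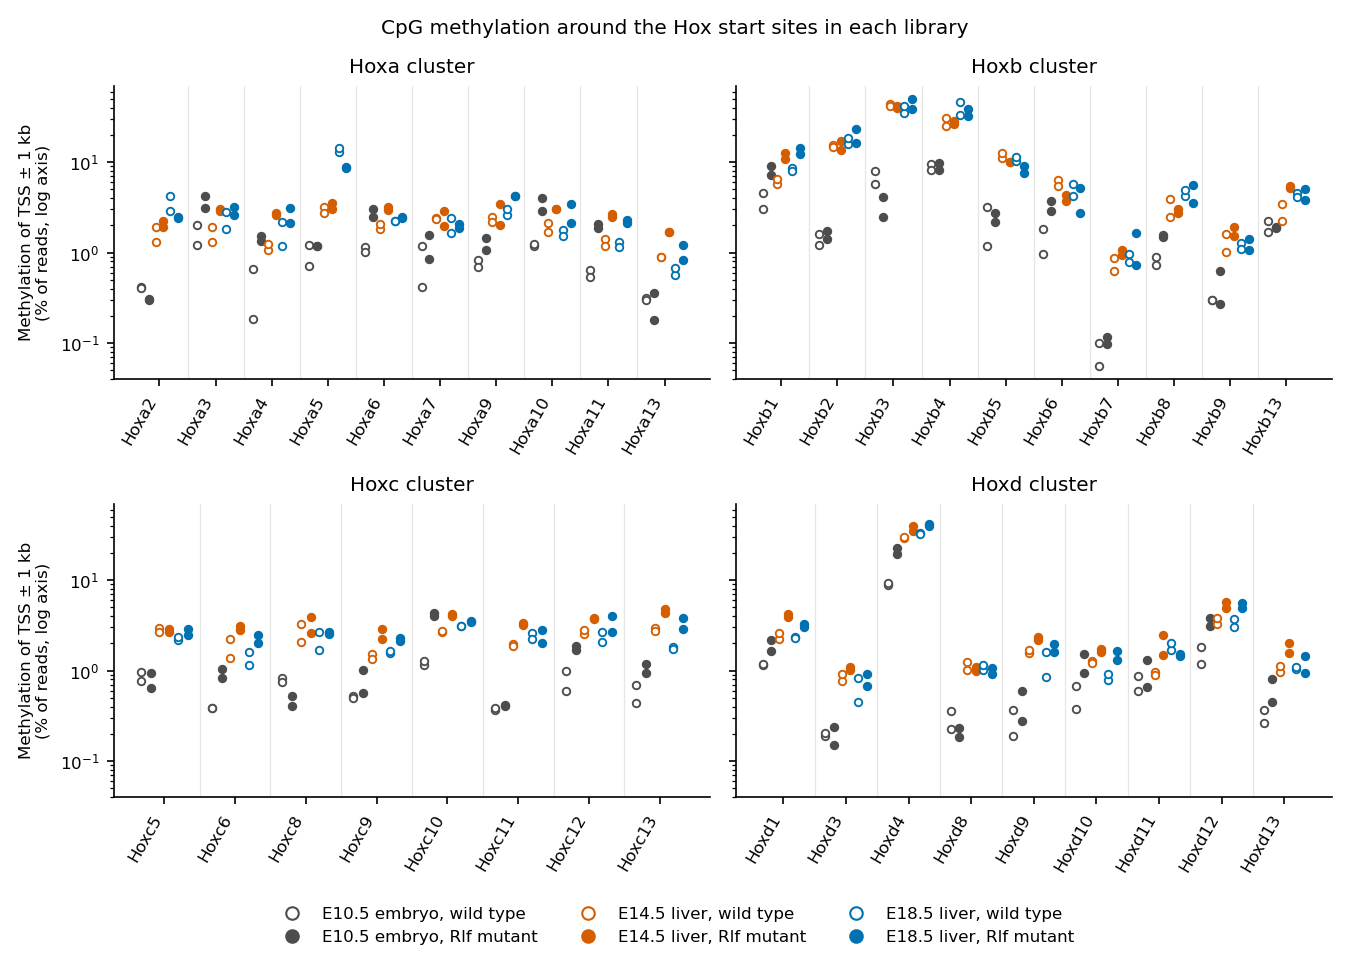
Methylation within 1 kb of the start sites of 37 of the 38 Hox genes with a window, in percent on a log axis, by cluster. Each point is 1 library, open for wild-type and filled for Rlf mutant, coloured by tissue. Most points lie under 5%, and the liver libraries of Hoxb2 to Hoxb5 and of Hoxd4 stand above the embryo libraries.

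Beyond the start sites the 4 clusters formed basins of low methylation. In wild-type samples the median tile had 1.41% in E10.5 embryo, 3.50% in E14.5 liver and 8.52% in E18.5 liver in Hoxa, and 2.05%, 5.86% and 8.33% in Hoxb. The other clusters stayed lower in liver, with 1.09%, 2.82% and 3.66% in Hoxc and 1.5%, 3.12% and 3.18% in Hoxd. All tiles of the genome had medians of 85.2%, 66.4% and 72.1%. In wild-type E10.5 embryo 60 of 64 Hoxc tiles were under 5%, against 4.14% of all tiles. The tiles that were highly methylated throughout were 1 Hoxd tile near Hoxd1 and those between Hoxb13 and Hoxb9, where 18 of the 105 Hoxb tiles were over 50% in each tissue in wild-type samples. A further 9 Hoxa tiles were over 50% in E18.5 liver and in neither earlier tissue.

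**Figure D2:**
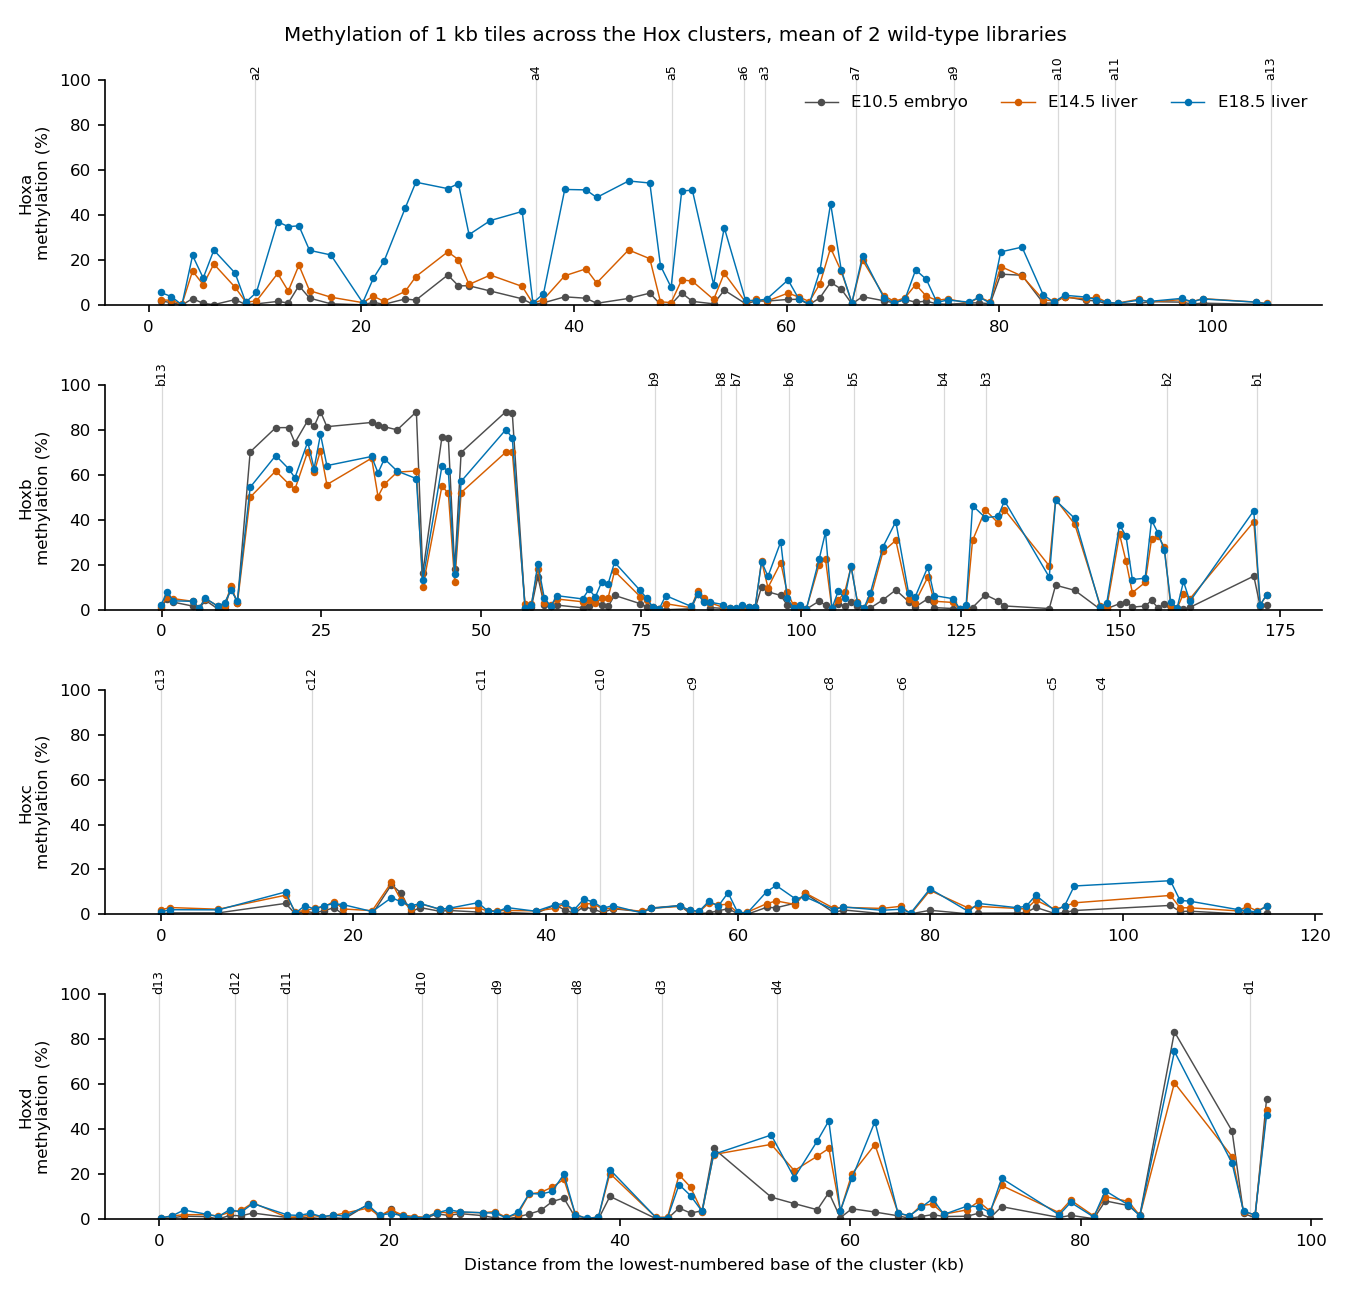
Mean wild-type methylation of 1 kb tiles, in percent, along the Hoxa, Hoxb, Hoxc and Hoxd clusters, against distance in kb from the lowest-numbered base of the cluster, with 1 line per tissue and start sites marked. The median Hoxc tile stays at 3.66% or less in each tissue, the Hoxb interval beside Hoxb13 is highly methylated, and the Hoxa tiles between the starts of Hoxa2 and Hoxa6 stand highest in E18.5 liver.

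The comparison of E14.5 liver with E10.5 embryo, averaged over genotypes, asks how methylation of the clusters differs between a whole embryo in mid-patterning and a later organ. Almost all Hox start sites were more methylated in E14.5 liver, most of them by 1 or 2 points. With edgeR (quasi-likelihood, methylated against unmethylated counts, Benjamini-Hochberg adjusted over all windows) 36 of 38 Hox windows were called higher at an adjusted p under 0.05 and 0 lower, and the same number, 36, had an unadjusted p under 0.05. Of all windows 21.6% were called higher and 41.8% lower. The median difference was 1.55 points over the Hox windows and -0.358 over all windows. Hox windows had less room to fall, with a wild-type embryo median of 0.791% against 5.69% over all windows. Hoxa3 (-0.32 points, adjusted p = 0.627) and Hoxa10 (0.159 points, adjusted p = 0.292) were not called.

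Among the anterior genes of groups 1 to 3, which pattern the hindbrain and the branchial arches, 7 of 8 windows were called higher. Hoxb3 had 7.94%, 5.74%, 2.49% and 4.08% in the embryos (wild-type replicates 1 and 2, then mutant replicates 1 and 2) and 43.7%, 41.4%, 39.3% and 41.6% in E14.5 liver. The groups lie far apart, by 36.4 points (adjusted p = 3.86e-08). Hoxb2, which acts in hindbrain segmentation, had 1.20%, 1.61%, 1.75% and 1.40% in the embryos and 15.4%, 14.6%, 13.6% and 17.0% in E14.5 liver (13.7 points, adjusted p = 1.43e-07, and 23.0 points with at least 10 reads per CpG). Hoxb1, which gives a hindbrain segment its identity, rose by 2.90 points (adjusted p = 0.00408) and Hoxd1 by 1.69 (adjusted p = 2.67e-05). Hoxd3, one of the 3 least methylated, rose by 0.753 points (adjusted p = 1.63e-05).

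All 14 tested windows of the central genes, groups 4 to 8, which act in the neck and trunk, were called higher. Hoxb4, known for its use in expanding blood stem cells, had 9.52%, 8.15%, 8.16% and 9.80% in the embryos and 25.2%, 30.5%, 26.2% and 28.2% in E14.5 liver (18.6 points, adjusted p = 8.70e-06). Hoxd4, which acts in the hindbrain and the neck vertebrae, had 8.75% and 9.38% in wild-type embryos, 22.7% and 19.3% in mutant embryos, and 28.9%, 29.9%, 35.0% and 39.7% in E14.5 liver (18.3 points, adjusted p = 8.42e-07). In both genes all liver libraries lay above all embryo libraries. Hoxb5 had 3.23%, 1.17%, 2.20% and 2.75% in the embryos and 11%, 12.6%, 10.04% and 9.98% in E14.5 liver (8.57 points, adjusted p = 1.56e-06, and 19.3 points with 500 bp to either side). Smaller rises past the test were seen at Hoxb6 (2.59 points), Hoxb8 (1.88), Hoxc5 (1.97), Hoxc6 (1.73) and Hoxc8 (2.35), genes of the trunk. The Hoxb6 rise was 1.21 points and not called with at least 10 reads per CpG (adjusted p = 0.179), and that of Hoxb8 was 0.487 points and not called with 500 bp to either side (adjusted p = 0.300). Hoxb7 and Hoxd8, the other least methylated windows, rose by 0.783 and 0.837 points. With 500 bp to either side Hoxb7 rose by 0.496 and Hoxc6 by 2.65 points, with at least 1 read per CpG Hoxb8 rose by 3.02, and in wild-type libraries alone Hoxb6 rose by 4.51.

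Of the 16 posterior genes, groups 9 to 13, which act in the lumbar region, limbs, tail and urogenital tract, 15 were called higher, by at most 2.88 points. That largest rise was at Hoxc13, a gene of hair and nail, with 0.696%, 0.435%, 0.947% and 1.19% in the embryos and 2.99%, 2.75%, 4.73% and 4.30% in E14.5 liver (adjusted p = 4.42e-07). Hoxc11 rose by 2.22 points, Hoxb13, a gene of the prostate and tail, by 2.15, Hoxd12, a gene of the limb, by 1.95, and Hoxc12 by 1.92. The Hoxb13 rise was not called with 500 bp to either side (1.41 points, adjusted p = 0.0984) or in wild-type libraries alone (0.882 points, adjusted p = 0.155). None of the 16 posterior windows moved by over 10 points, whereas 2 anterior and 2 central ones did (Hoxb2, Hoxb3, Hoxb4 and Hoxd4). That contrast between the roles is a description and was not tested. These 4 windows are also CpG-poor, with 46, 23, 26 and 23 reference CpGs beside the Hox median of 80. The part of CpG content was not tested.

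Across the tiles of the clusters 224 of 311 had an adjusted p under 0.05 and a higher percent in E14.5 liver, where 5.13% of all tiles did, and 25 had a lower percent, against 86.3% of all tiles. The median Hox tile rose by 1.61 points while the median of all tiles fell by 15.6 points. The starting levels were unlike, with wild-type embryo medians of 1.09% to 2.05% in the clusters and 85.2% over all tiles. Most Hox tiles thus had little room to fall. With a difference above 15 points as well, 28 Hox tiles were higher (1.18% of all tiles) and 18 lower (52.6% of all tiles). The larger gains were therefore few, and most of them, 18, lay in Hoxb between Hoxb6 and Hoxb1 (chr11:96158000-96226999), with 7 in Hoxd, 3 in Hoxa and 0 in Hoxc. In Hoxc 47 of 64 tiles had an unadjusted p under 0.05 and the largest rise past the test was 6.75 points.

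A Hoxb3 intron tile (chr11:96187000-96187999, 32 CpGs) changed most. It had 1.48%, 1.86%, 1.77% and 0.811% in the embryos, 47.0%, 42.1%, 49.1% and 48.5% in E14.5 liver, and 48.8%, 48.2%, 41.8% and 44.6% in E18.5 liver. The rise from embryo to E14.5 liver was 45.2 points (adjusted p = 4.61e-28), and the liver stages overlapped. The Hoxb3 tiles at chr11:96186000-96186999 and chr11:96184000-96184999 rose by 39.5 and 37.4 points. In Hoxd the largest rises lay in and beside Hoxd3 and Hoxd4, at chr2:74568000-74568999 (29.7 points), chr2:74559000-74559999 (22.5) and chr2:74563000-74563999 (21.8). The tile with the 29.7-point rise had 2.35%, 3.91%, 6.76% and 9.47% in the embryos and 30.8%, 35.6%, 37.0% and 38.0% in E14.5 liver. In Hoxa the largest were at chr6:52150000-52150999 (20.3 points, a Hoxa3 exon), chr6:52152000-52152999 (17.8, a Hoxa5 exon) and chr6:52111000-52111999 (16.3, beside Hoxa2).

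The falls were of another kind. Of 20 tested tiles between chr11:96069000 and 96110999, the methylated interval next to Hoxb13, 17 fell by over 15 points. The tile at chr11:96089000-96089999 had 80.7%, 84.0%, 77.7% and 80.0% in the embryos and 48.2%, 52.5%, 53.8% and 55.1% in E14.5 liver, a fall of 28.2 points (adjusted p = 3.28e-15). Those at chr11:96081000-96081999 and chr11:96099000-96099999 fell by 24.1 and 23.6 points, and a tile at chr2:74594000-74594999, towards Hoxd1, by 23.4. These falls were in the direction of most tiles of the genome. In Hoxa a Hoxa7 exon tile (chr6:52167000-52167999) passed the test with a mean difference of only -0.039 points. Wild-type means rose from 0.191% in the embryo to 1.56% in liver, and mutant means fell from 4.36% to 2.91%. On the log odds that the test uses, the wild-type rise is the larger. This tile is thus counted as lower by its percent only.

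The comparison of E18.5 with E14.5 liver shares the E14.5 libraries with the one above, so the 2 are not independent. Per the study, most cells of E14.5 liver are erythroblasts and most of E18.5 liver hepatoblasts. Stage and cell type shares cannot be told apart here. Sex was mixed at E14.5 and female at E18.5, and its part was not tested. At start sites few Hox genes changed. Hoxa5, which acts in lung and the lower neck, had 3.18%, 2.71%, 3.02% and 3.52% in E14.5 liver and 12.9%, 14.3%, 8.94% and 8.53% in E18.5 liver. All E18.5 libraries were above all E14.5 ones, by 8.06 points on average (adjusted p = 0.000114 by edgeR's quasi-likelihood test, and 5.26 points with 500 bp to either side). Hoxa2, which patterns the branchial arches, rose by 1.14 points (adjusted p = 0.032), and Hoxb4 by 9.90 (adjusted p = 0.0486) with 45.9%, 32.8%, 38.8% and 32.1% in E18.5 liver. Hoxc13 fell by 1.15 points (adjusted p = 0.0376). These were 3 windows higher and 1 lower of 38, with 7 at an unadjusted p under 0.05, where 9.8% of all windows were called higher and 5.33% lower. The count of 4 called fell to 1 without E14.5 wild-type replicate 1, mutant replicate 1 or mutant replicate 2, or without E18.5 wild-type replicate 2, and to 2 without E18.5 wild-type replicate 1 or mutant replicate 1. Hoxb3, the most methylated window, had 34.8%, 41.9%, 49.4% and 38.8% in E18.5 liver and differed by -0.27 points between the liver stages (adjusted p = 0.953).

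The larger changes between the liver stages lay in the part of the Hoxa cluster from Hoxa3 to Hoxa7. Past the test were 73 Hox tiles with a higher percent at E18.5, against 38.5% of all tiles, and 12 with a lower one, against 1.29% of all tiles. Past the 15-point limit were 23 Hox tiles, of which 22 lay in Hoxa, against 0.702% of all tiles, and 0 were lower (0.0318% of all tiles). The 22 Hoxa tiles were among 36 tested between chr6:52117000 and 52169999, from the Hoxa3 gene to Hoxa7. In 2 stretches that were delimited after their values were seen, 30 of 38 tiles from the anterior end of the cluster to Hoxa6 rose between the liver stages, with a median of 16.7 points, and 6 of 27 tiles from Hoxa7 to Hoxa11 (chr6:52164490-52196213) rose and 5 fell, with a median of 0.195 points. From embryo to E14.5 liver 36 of the same 38 had risen, with a median of 5.38 points.

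The tile at chr6:52130000-52130999, in the Hoxa3 gene, had 1.92%, 2.48%, 1.16% and 1.30% in the embryos, 12.8%, 12.6%, 14.1% and 19.1% in E14.5 liver and 56.7%, 52.7%, 48.2% and 50.3% in E18.5 liver. It rose at each step without overlap, by 37.3 points between the liver stages (adjusted p = 1.65e-15). The tile of the Hoxa6 homeobox exon (chr6:52156000-52156999, 41 CpGs), a thoracic gene, had 11.6%, 9.59%, 10.3% and 5.94% in E14.5 liver and 52.6%, 49.6%, 39.8% and 42.5% in E18.5 liver (36.8 points, adjusted p = 1.85e-18). The Hoxa6 start site had 1.82% to 3.19% and 2.22% to 2.46% in the same libraries, so the gain was in the gene body and not at the window. A tile at chr6:52144000-52144999, in an annotated Hoxa3 intron, rose by 36.7 points. Outside Hoxa the Hoxb4 exon tile at chr11:96182000-96182999 was the exception, with 31.5%, 30.1%, 25.5% and 27.0% in E14.5 liver and 42.7%, 50%, 48.2% and 41.8% in E18.5 liver (17.1 points, adjusted p = 9.28e-06).

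The comparison of the genotypes asks what loss of Rlf does to methylation of these genes. At start sites the differences were small and, where called, upwards. In E10.5 embryo 5 of 38 Hox windows were called higher (Hoxa6, Hoxa10, Hoxa11, Hoxc10 and Hoxd4) and 0 lower, with 17 at an unadjusted p under 0.05, against 0.672% of all windows called higher. In E14.5 liver 0 were called by edgeR's quasi-likelihood test, with 19 at an unadjusted p under 0.05 and 0.122% of all windows called higher. With replicate number as a term, which in these livers also marks sex, 5 were called. The share of all windows called in that fit is not given here. In E18.5 liver 0 were called, with 9 at an unadjusted p under 0.05 and 0.206% of all windows. Averaged over the tissues, 14 were called higher and 0 lower (18 at an unadjusted p under 0.05), against 4.81% of all windows higher and 0.143% lower. The median differences of the Hox windows were 0.298, 0.771 and 0.412 points in the 3 tissues in order of age, and those of all windows 0.358, 0.378 and 0.204. Differences were above 0 in 30, 31 and 27 of the 38 Hox windows and in 71.6%, 70.8% and 64.8% of all windows. The share of all windows at an unadjusted p under 0.05 is not given here, so the unadjusted counts have no background. Genome-wide methylation was higher in the mutants by 2.28, 2.32 and 1.93 points on average, but in E18.5 liver the groups overlapped and without mutant replicate 1 the difference was -0.111 points, and the part of that in these values was not tested. The count of 5 in E10.5 embryo fell to 0 without embryo wild-type replicate 1 or mutant replicate 1, to 1 without mutant replicate 2, and to 3 without wild-type replicate 2 or without either E18.5 wild-type liver. The average over tissues gave 10 to 14 with any library left out. With 500 bp to either side of the start site, 0 windows were called in E10.5 embryo and 4 on average.

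Among the posterior genes, Hoxa11, which acts in the forearm and the uterus, had 0.636% and 0.539% in wild-type and 2.05% and 1.87% in mutant embryos. It had 1.40% and 1.17% against 2.48% and 2.67% in E14.5 liver and 1.32% and 1.15% against 2.30% and 2.12% in E18.5 liver. Both mutants lay above both wild-types in each tissue, by 1.37 points in the embryo (adjusted p = 0.00926) and 1.21 points on average (adjusted p = 0.000293). Hoxc10, a gene of the lumbar region and hindlimb, had 1.15% and 1.26% against 4.30% and 4.02% in the embryo (2.96 points, adjusted p = 0.00413), and 3.14% and 3.09% against 3.4% and 3.50% in E18.5 liver. The embryo call for Hoxc10 was lost without wild-type replicate 1 or mutant replicate 1 of the embryos (adjusted p = 0.0894 and 0.0568), and with 500 bp to either side (1.10 points, adjusted p = 0.445). Hoxa10, which acts in the lumbar vertebrae and uterus, had 1.19% and 1.24% against 4.03% and 2.89% in the embryo (2.24 points, adjusted p = 0.0412). That call did not hold without 1 library in 9 of 12 cases, all but E14.5 wild-type replicate 1 and both E18.5 mutants, with adjusted p up to 0.345, nor with at least 10 reads per CpG (0.0621), with 500 bp to either side (0.192) or from the start of the transcript with the longest coding sequence (0.0579). From that last start the Hoxa10 difference in the embryo was larger, 3.81 points against 2.24 in the main window, though not called. Also called on average were Hoxc12 (1.01 points), Hoxc13 (1.23), Hoxd10 (0.577) and Hoxd12 (1.83). The 14 called on average were 7 of 16 posterior, 4 of 14 central and 3 of 8 anterior windows tested.

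Of the central genes, Hoxd4 had the largest difference of any Hox window. It had 8.75% and 9.38% in wild-type and 22.7% and 19.3% in mutant embryos, 28.9% and 29.9% against 35.0% and 39.7% in E14.5 liver, and 33.4% and 32.1% against 41.8% and 39.5% in E18.5 liver. The groups did not overlap in any tissue, and the difference was 12 points in the embryo (adjusted p = 0.0188) and 9.29 on average (adjusted p = 0.00217). Hoxa6 had 1.17% and 1.01% against 3.05% and 2.49% in the embryo (1.68 points, adjusted p = 0.0265). Hoxa4 (1.15 points) and Hoxc6 (0.869) were also called on average, as was the anterior Hoxa3 (1.32), whose window overlaps that of Hoxa6 only at its edge. The other anterior genes called on average were Hoxd1 (1.06) and Hoxb1.

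Hoxb1 had 3.04% and 4.61% against 9.05% and 7.30% in the embryo, 5.68% and 6.47% against 12.6% and 10.8% in E14.5 liver, and 8.52% and 7.95% against 12.4% and 14.4% in E18.5 liver. The mutants were higher without overlap in each tissue, by 5.05 points on average (adjusted p = 0.00126), and no single tissue passed (adjusted p = 0.0581, 0.0981 and 0.281). With 500 bp to either side the Hoxb1 difference was 2.06 points and not called (adjusted p = 0.175). Both mutants lay above both wild-types in all 3 tissues in 12 of 38 Hox windows, where 7.94% of all windows did so. Hoxa5 went the other way in E18.5 liver, with 12.9% and 14.3% in wild-type and 8.94% and 8.53% in mutant livers, but the difference of -4.87 points was not called (adjusted p = 0.335). A different genotype effect between tissues was called in 0 of 38 Hox windows (edgeR's quasi-likelihood test, adjusted p = 1.0), with 8 at an unadjusted p under 0.05.

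Over the tiles the genotype difference was most frequent in Hoxa in the embryo. In E10.5 embryo 28 of 311 Hox tiles passed the test with higher methylation in the mutants and 0 with lower, and 21 of the 28 lay in Hoxa, against 0.714% of all tiles higher and 0.0117% lower. In E14.5 liver 6 were higher and 0 lower (0.246% of all tiles higher and 0.00843% lower), and in E18.5 liver 5 higher and 3 lower (0.286% of all tiles higher and 0.0103% lower). Averaged over tissues 60 were higher and 2 lower (3.64% of all tiles higher and 0.0879% lower). Above 15 points there were 2 in E10.5 embryo (0.37% of all tiles), 1 in E14.5 liver (0.133%), 0 higher in E18.5 liver (0.195%; 68 of 311 tiles had an unadjusted p under 0.05 there) and 1 on average (0.148%). A single tile was lower by that much, in E18.5 liver, where 0.00447% of all tiles were. In 53 of 311 Hox tiles both mutants were above both wild-types in all 3 tissues, where 5.54% of all tiles were. The median differences of the Hox tiles were 0.368, 0.745 and 0.442 points, below the medians of 1.13, 1.74 and 2.01 points over all tiles, most of which start from a far higher level.

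**Figure D3:**
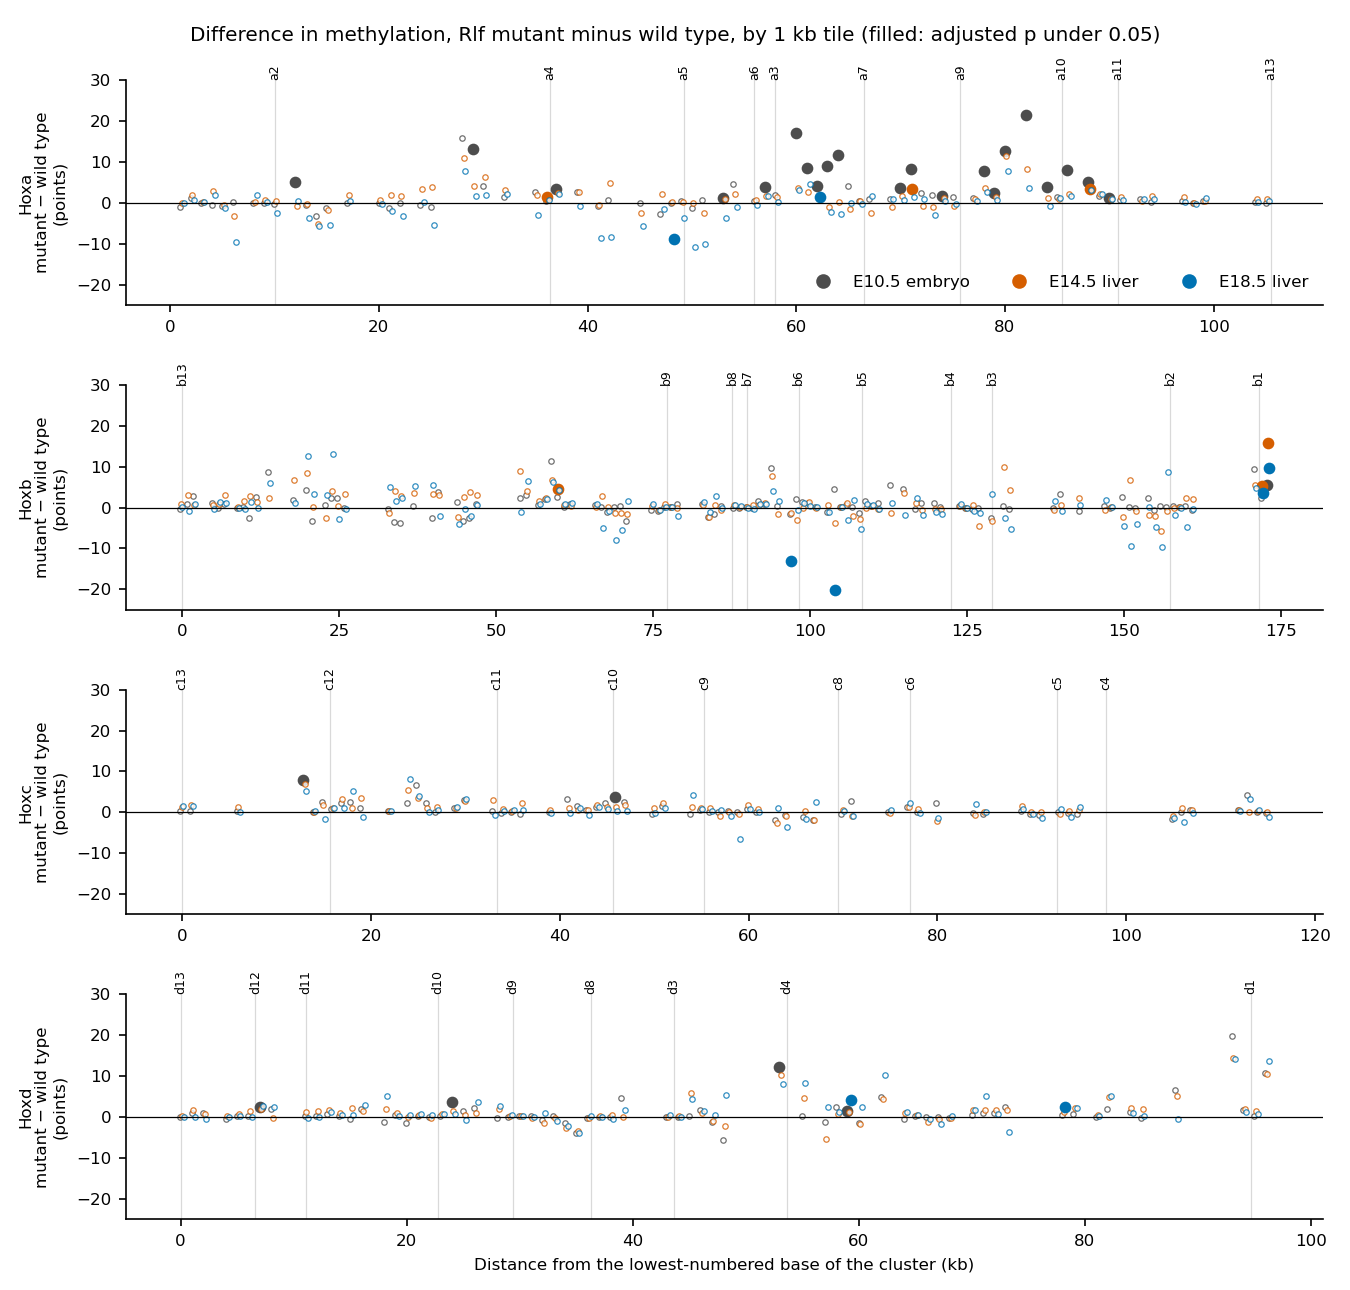
Mutant minus wild-type methylation of 1 kb tiles, in points of percent, along the 4 clusters, coloured by tissue. Filled points have an adjusted p under 0.05. Filled points in E10.5 embryo cluster between Hoxa7 and Hoxa11, where the highest is 21.6 points, and the lowest point past the test is the Hoxb6 intron tile in E18.5 liver at -20.1.

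The largest tile count in the embryo came from the stretch between Hoxa7 and Hoxa11, delimited after its values were seen. Its 27 tested tiles were all higher on average in the mutant embryos, with a median of 3.73 points, and 16 passed the test, against 2 in E14.5 liver and 1 in E18.5 liver. The tile with the strongest test (chr6:52165000-52165999, 26 CpGs) holds the homeobox exon of Hoxa7, a thoracic gene, and also an exon of 2700086A05Rik. It had 2.90% and 2.1% in wild-type and 20.2% and 19.2% in mutant embryos, 5.04% and 5.61% against 9.21% and 8.59% in E14.5 liver, and 11.3% and 11.1% against 11.7% and 17.2% in E18.5 liver. The embryo difference of 17.2 points was called (adjusted p = 8.37e-11) and those in liver were not (3.58 points, adjusted p = 0.260, and 3.27 points, adjusted p = 0.549). The test of the difference between tissues was itself passed (adjusted p = 0.000150), as it was by 10 tiles in the genome (0.00172%) and by 2 of the 311 Hox tiles, with 47 at an unadjusted p under 0.05. In the embryo both mutants were above both wild-types at 22 of the 26 CpGs.

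The other Hox tile whose genotype difference varied between tissues holds the first exon of the Hoxa7 transcript with the longest coding sequence (chr6:52167000-52167999, 70 CpGs). It had 0.110% and 0.273% against 4.87% and 3.85% in the embryo, 1.27% and 1.86% against 2.99% and 2.83% in E14.5 liver, and 0.621% and 0.350% against 1.76% and 2.18% in E18.5 liver (adjusted p of the difference between tissues = 0.0307). The mutants were higher in each tissue, by 4.17 points in the embryo (adjusted p = 5.19e-09) and 1.49 in E18.5 liver (adjusted p = 0.0135). In E14.5 liver the 1.34 points did not pass the test (adjusted p = 0.237). A Hoxa10 intron tile (chr6:52187000-52187999, 8 CpGs) had the largest embryo difference, with 14.0% and 12.6% against 37.8% and 31.8% (21.6 points, adjusted p = 0.00227). It had 13.9% and 11.9% against 21.2% and 21.0% in E14.5 liver, and overlapping groups in E18.5 liver, 31.6% and 20% against 29.9% and 28.9%. Chosen after their values were seen, an exon tile of Hoxa9, a gene of blood progenitors and the lumbar axis (chr6:52176000-52176999), had 2.27% and 2.6% against 11.5% and 9.88% in the embryo, and one of Hoxa10 (chr6:52183000-52183999) had 0.642% and 1.35% against 9.23% and 8.42%. Outside Hoxa the Hoxc10 exon tile (chr15:102797000-102797999) had 0.811% and 0.842% against 4.91% and 4.45%.

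Hoxb1 was the locus with differences past the test in every tissue. The tile of its homeobox exon (chr11:96228000-96228999, 28 CpGs) had 2.33% and 1.68% against 7.77% and 7.12% in the embryo, 6.30% and 6.89% against 18.8% and 25.8% in E14.5 liver, and 8.09% and 5.29% against 18.3% and 14.6% in E18.5 liver. The differences were 5.43 points (adjusted p = 0.00154), 15.7 (adjusted p = 5.13e-07) and 9.73 (adjusted p = 0.00256), and both mutants were above both wild-types at 11, 23 and 17 of the 28 CpGs. The adjoining tile with the earlier exon (chr11:96227000-96227999) had 1.28% and 1.71% against 3.28% and 4.24%, 1.99% and 2.1% against 7.47% and 7.12%, and 2.55% and 1.71% against 6.29% and 5.07% in the same order. In Hoxd the tile called on average (chr2:74599000-74599999, 8 CpGs) lies upstream of the start of Hoxd1, in an intron of 6720416L17Rik. It had 44.9% and 33.6% against 62.2% and 55.9% in the embryo, 29.4% and 26.2% against 43.7% and 41.1% in E14.5 liver, and 29.5% and 20.4% against 38.1% and 40.3% in E18.5 liver. Again no groups overlapped, and the average difference was 16.2 points (adjusted p = 0.000564).

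In single tissues, tiles called lower in the mutants were found in E18.5 liver alone. Averaged over tissues, a Hoxa3 exon tile (chr6:52120000-52120999, -2.81 points) and a tile near Hoxd8 (chr2:74541000-74541999, -3.81 points) were lower. The Hoxb6 intron tile (chr11:96159000-96159999, 10 CpGs) had 33.6% and 35.5% in wild-type and 17.0% and 11.9% in mutant E18.5 livers (-20.1 points, adjusted p = 0.0377). In E14.5 liver it had 21.4% and 23.4% against 17.2% and 20%, and in the embryo 1.55% and 2.40% against 9.89% and 3.36%. Both mutants were below both wild-types at 5 of its 10 CpGs at E18.5. Over its single CpGs the median difference there was -9.06 points, with the lowest at -22.2. The tile percent pools reads, so CpGs with more reads weigh more in the -20.1 points. An exon tile of 0610040B09Rik near Hoxb6 (chr11:96152000-96152999) had 29.1% and 31.4% against 19.4% and 15% (-13.0 points, adjusted p = 0.0458), and the Hoxa5 exon tile (chr6:52153000-52153999) 15.4% and 19.7% against 7.85% and 9.53% (-8.87 points, adjusted p = 0.00808). All 3 tiles had low methylation in the wild-type embryos, at 7.02% or less.

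**Figure D4:**
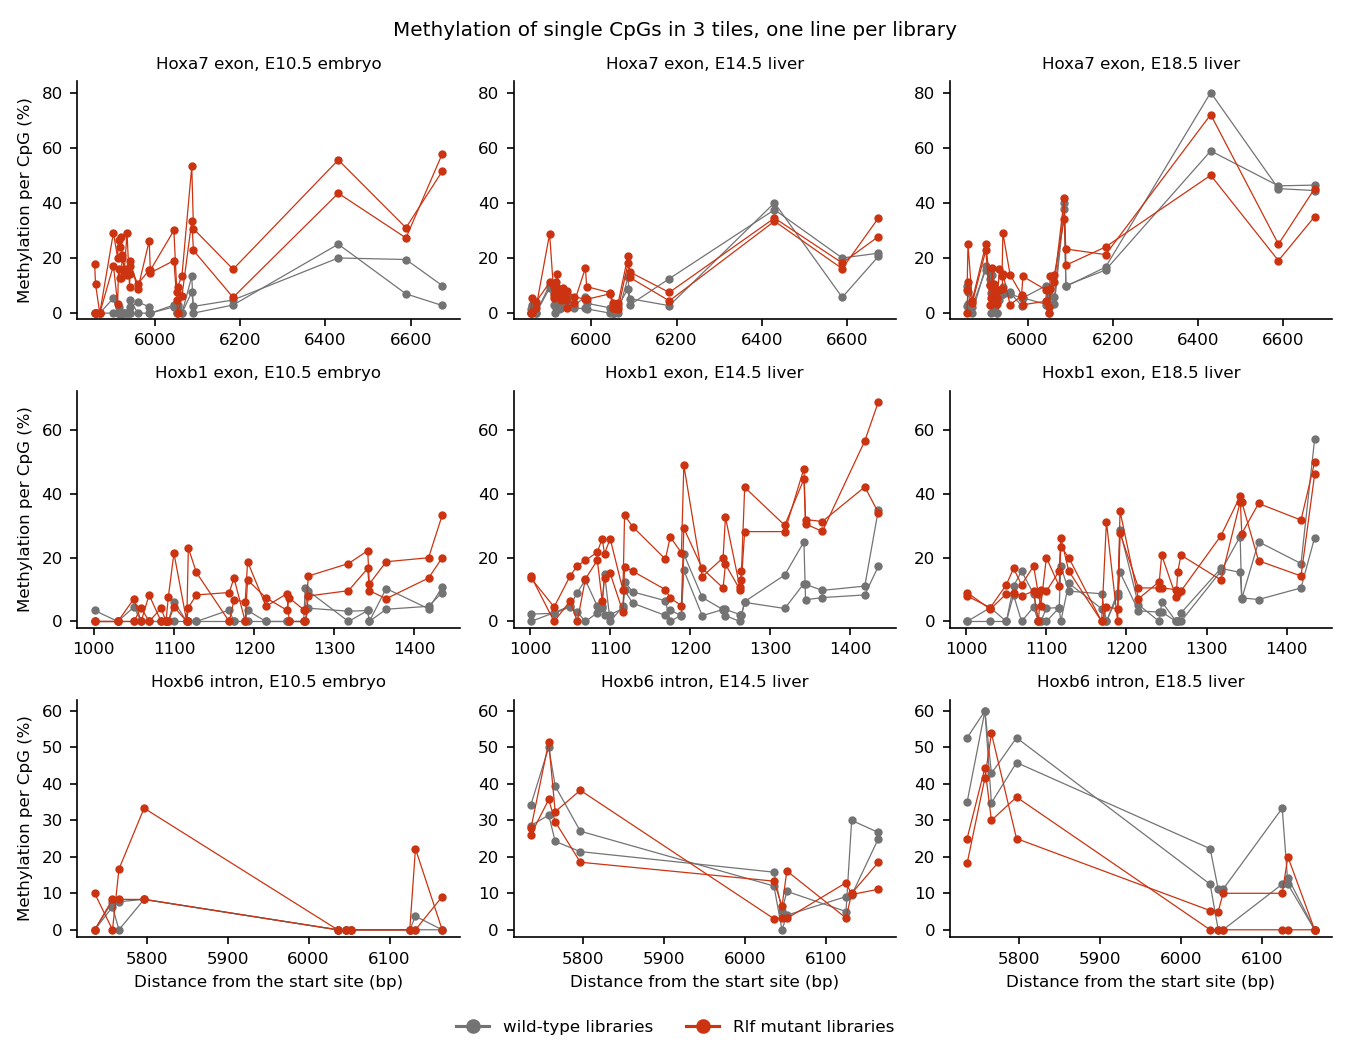
Methylation of single CpGs, in percent, in the Hoxa7 exon, Hoxb1 exon and Hoxb6 intron tiles, by tissue, against distance in bp from the start site of the gene. Each line is 1 library, grey for wild-type and red for mutant. The mutant embryos lie above the wild-types at 22 of 26 Hoxa7 CpGs, and the mutant E18.5 livers lie below at 5 of 10 Hoxb6 CpGs.

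Read as whole clusters, the genotype differences were about 1 point. The Hoxd span (chr2:74506367-74603200, 2220 CpGs) had 3.0% and 2.93% in wild-type and 4.11% and 4.05% in mutant embryos, 6.15% and 6.35% against 7.54% and 7.41% in E14.5 liver, and 5.73% and 5.81% against 7.15% and 6.59% in E18.5 liver. Averaged over tissues the difference was 1.15 points, with p = 0.00926 by an exact permutation test, two-sided, that swapped genotypes inside each tissue (216 permutations, the smallest p they can give) and 0.0185 after adjustment over the 4 spans. The Hoxc span (chr15:102751534-102867274, 1750 CpGs) had 1.73% and 1.75% against 2.67% and 2.62%, 3.52% and 3.68% against 4.61% and 4.52%, and 3.96% and 4.25% against 4.77% and 4.40% in the same order (0.782 points, adjusted p = 0.0185 by the exact test). In both spans the mutants lay above the wild-types in every tissue. The Hoxb span (chr11:96055630-96229570, 2579 CpGs) differed by 0.725 points (adjusted exact p = 0.0864, and 0.0370 without E18.5 mutant replicate 2), with 0.989 and 1.52 points in embryo and E14.5 liver and -0.332 in E18.5 liver, where the groups overlapped, and the Hoxa span (chr6:52105366-52210874, 2472 CpGs) by 0.721 (adjusted exact p = 0.176). The Hoxa span had 1.64% and 1.80% against 4.05% and 3.66% in the embryo, 5.16% and 4.68% against 6.36% and 5.73% in E14.5 liver, and 11.7% and 12% against 10.9% and 10.6% in E18.5 liver. Its mutants were thus above the wild-types in the embryo and E14.5 liver and below them in E18.5 liver, and with 2 samples against 2 an exact test within 1 tissue cannot go below p = 0.333.

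The 50 kb to either side of each cluster were more methylated than the clusters and differed by more points. The average difference was 3.42 points beside Hoxa, 3.45 beside Hoxb, 1.98 beside Hoxc and 1.84 beside Hoxd, with adjusted p of 0.0185, 0.0185, 0.0370 and 0.0556 by the exact permutation test. The Hoxc flanks lost the call without 1 library in 6 of 12 cases, wild-type replicate 1 and mutant replicate 2 of the embryos, E14.5 wild-type replicate 1, both E18.5 wild-types and E18.5 mutant replicate 1 (adjusted exact p = 0.0556 to 0.0741). Those of Hoxd gained it without embryo wild-type replicate 2 or E18.5 mutant replicate 2 (adjusted exact p = 0.0247 and 0.0370). From embryo to E14.5 liver the spans rose by 2.69, 3.48, 1.89 and 3.34 points in the order Hoxa to Hoxd, while the flanks fell by 5.85, 13.6, 6.0 and 5.22 points. The clusters and their surroundings thus moved in opposite directions between these tissues, from unlike starting levels and as values with no test.

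The homeobox, the stretch that encodes the DNA-binding homeodomain, was examined after the Hoxa7 and Hoxb1 values were seen, and is described without a test. The letters TGGTTNCANAANNGNNG, which encode part of the helix that reads the DNA, were searched on the strand of each gene and found in an exon of all 39. On either strand they occur in 394 of the 581526 tiles tested (0.0678%). Within 100 bp of the match, 35 genes had enough covered CpGs, and the wild-type medians were 0.932% in E10.5 embryo, 3.11% in E14.5 liver and 4.19% in E18.5 liver. Both mutants lay above both wild-types at 14, 12 and 12 of the 35 homeoboxes and below at 4, 3 and 4, where 31.4%, 34.0% and 31.2% of all tiles, which are longer than these stretches, had both mutants above and 9.31%, 6.49% and 6.49% below. Hoxd1 was the highest in the embryo, with 52.9% and 50.7% in wild-type and 68.4% and 61.4% in mutant embryos. In E18.5 liver the wild-type homeoboxes of Hoxa4, Hoxa5 and Hoxa6, with means of 48.9%, 51.7% and 53.1%, were about as methylated as that of Hoxd1 in the embryo, while their start sites stayed at 14.3% or less.

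In E14.5 liver the Hox genes were barely expressed. The 39 genes together had 176, 214 and 246 counts in the wild-type and 167, 188 and 234 in the mutant livers. Hoxa genes held 700 of the 1225 counts and Hoxb genes 405, and Hoxc and Hoxd genes 90 and 30. Hoxa11, Hoxc9 and Hoxd1 had no count in any library, and 26 of the 39 had fewer than 20 counts over the 6. A count of 0 allows up to 3 counts in a library, or 0.198 to 0.233 CPM (counts scaled to library size), for counting error only. Only 8 genes passed edgeR's default filter on low counts, among them Hoxa2, Hoxa3, Hoxa4, Hoxa5, Hoxa9, Hoxb4 and Hoxb5. All 8 are anterior or central genes except Hoxa9.

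Hoxa5 had most counts, with 36, 29 and 39 in wild-type and 29, 25 and 40 in mutant livers, and also the highest level per length, 1.31 ± 0.253 RPKM, which scales counts to exon length and library size, (SD, n = 3) in wild-type livers. The exon lengths come from another annotation release than the one the reads were counted on, so levels per length are approximate. Hoxb4 had 22, 40 and 32 against 28, 22 and 31 counts, and Hoxa3 19, 24 and 24 against 16, 16 and 34. The groups overlapped in each. Hoxa4, which acts in the neck, had 16, 23 and 16 against 15, 15 and 11 counts, the largest log2 fold change of the 8 (-0.36 ± 0.29, SE). With edgeR (quasi-likelihood, Benjamini-Hochberg adjusted) 0 of the 8 were called, at adjusted p of 0.621 to 0.978, with 0 at an unadjusted p under 0.05 and 0 called by DESeq2. Of all 14183 genes tested 1.39% were called. At these counts the standard errors were 0.24 to 0.38 on the log2 scale. A change must exceed several standard errors to be called after adjustment, so smaller changes were not detectable.

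**Figure D5:**
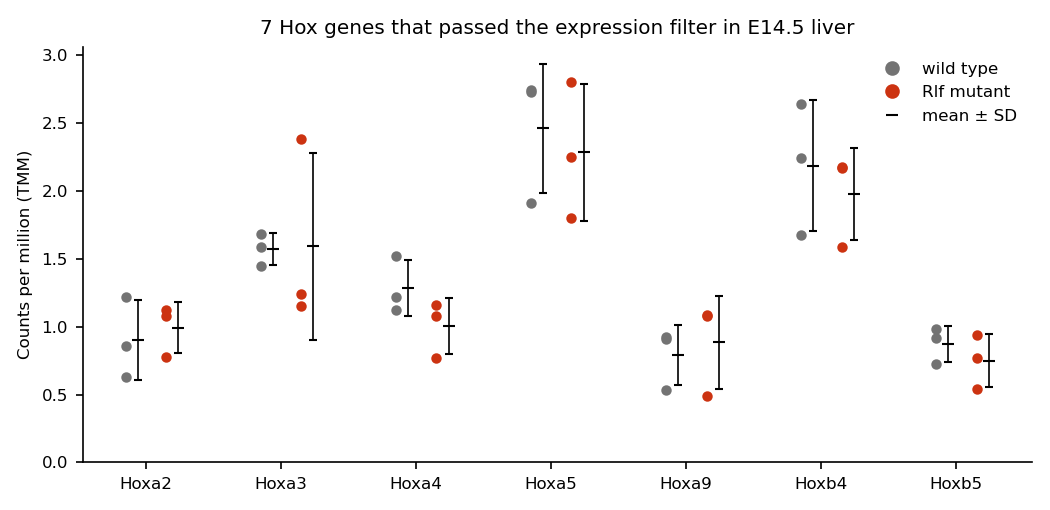
CPM of 7 of the 8 Hox genes that passed the filter on low counts in E14.5 liver, with 1 point per library (grey for wild-type, red for mutant) and bars for the mean and SD of 3 livers each. The groups overlap for the genes shown, and Hoxa5 and Hoxb4 are highest.

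Start-site methylation was low in the expressed and in the nearly silent Hox genes. In wild-type E14.5 liver the 8 genes that passed the filter had a median of 1.99% (1.16% to 27.9%) and the 30 others with a window 2.17% (0.745% to 42.5%). This is a description over genes, with no test. Hoxb4, with 27.9%, was among the most expressed, and Hoxd3 and Hoxd8, both under 2%, had 5 and 13 counts over the 6 libraries. The Hoxb4 value rests on 8 covered CpGs. Within that gene the homeobox stretch had 0% and 1.26% in the wild-type E14.5 livers, and the exon tile at chr11:96182000-96182999 had 31.5% and 30.1%.

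Genes that act with or on the Hox genes were counted from fixed lists. TALE cofactors, the homeodomain proteins that bind DNA beside Hox proteins, had 8 of 9 measured and 0 called (1 at an unadjusted p under 0.05, with 1 called by DESeq2 and 1 with replicate number as a block), with Pbx2, Pbx3 and Pknox1 at the highest levels. The activators, among them Kmt2a and the Cdx and retinoic acid receptor genes, had 13 of 16 measured and 0 called (1 at an unadjusted p under 0.05, 0 by DESeq2), with Mllt3, Psip1 and Dot1l at the highest levels. All 26 Polycomb genes were measured, with Rbbp4, Rbbp7 and Suz12 highest, and 0 were called by edgeR (2 at an unadjusted p under 0.05, 0 by DESeq2). Of 7 genes of chromosome architecture, Ctcf and cohesin, with Rad21, Stag2 and Smc1a highest, 0 were called by edgeR (1 at an unadjusted p under 0.05, 0 by DESeq2). Of 8 measured genes of DNA methylation, with Dnmt1, Uhrf1 and Dnmt3a highest, Dnmt3a, which methylates DNA anew, was called by edgeR and by DESeq2, where 1.39% of all genes were called by edgeR, and 5 of the 8 had an unadjusted p under 0.05, against 14.6% of all genes. Dnmt3a had 1327, 1641 and 1644 against 1751, 1930 and 1868 counts (log2 fold change 0.32 ± 0.063, adjusted p = 0.0319). The groups do not overlap, but the call was lost without any of wild-type replicates 1 and 3 and mutant replicates 1, 2 and 3 (adjusted p = 0.0561 to 0.102).

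Other genes inside or within 50 kb of the clusters were mostly too low to test. Of 14, 13, 7 and 10 such genes at Hoxa, Hoxb, Hoxc and Hoxd, only 2, both at Hoxb, passed the filter, and 0 were called by edgeR (1 at an unadjusted p under 0.05, 0 by DESeq2). That gene was Hoxb3os, with 6, 8 and 13 against 16, 15 and 17 counts (log2 fold change 0.87 ± 0.34, adjusted p = 0.255). Reads of a gene and of its antisense transcript cannot be told apart in these counts, which ignore strand.

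The tissue label was checked with cell type markers. Erythroid markers, the globins among them, summed to 22511 to 44915 CPM in wild-type and 29147 to 31615 in mutant livers, and hepatoblast markers to 53353 to 63950 and 65733 to 76478. Neural markers summed to at most 0.577. The hepatoblast sums did not overlap, although 0 of 7 genes were called by edgeR (1 at an unadjusted p under 0.05, 0 by DESeq2), and 0 of 6 erythroid genes were (1 and 0). Mesenchymal markers (802 to 1048 and 879 to 1308), endothelial markers (250.1 to 274.8 and 274 to 324) and stem and progenitor markers (469 to 590 and 516 to 566) had 0 called by edgeR and by DESeq2, with 4, 3 and 2 at an unadjusted p under 0.05. With replicate number as a block 1 mesenchymal marker was called, Nr2f2 (adjusted p = 0.0353). Macrophage markers summed to 280 to 319 in wild-type and 213 to 248 in mutant livers. Of the 4, 1 was called by edgeR, Cd5l, and 2 had an unadjusted p under 0.05, with a median log2 fold change of -0.10 over the list. Without Cd5l the sums overlapped, at 178 to 201 and 175 to 195 CPM. Cd5l had 1710, 1339 and 1460 against 691, 521 and 703 counts (log2 fold change -1.19 ± 0.14, adjusted p = 0.00187). Megakaryocyte markers summed to 256 to 266 and 322 to 356. All 3 had an unadjusted p under 0.05, and 1 was called by edgeR and 2 by DESeq2 and with the block (Pf4 and Itga2b). Pf4 was called with 2038, 2312 and 2082 against 2396, 2794 and 3040 counts (log2 fold change 0.40 ± 0.068, adjusted p = 0.0143, and 0.0665 or 0.0652 without wild-type replicate 3 or mutant replicate 3). In bulk tissue fewer cells of a type and less RNA per cell cannot be told apart, and the part of cell type shares in the Hox values was not tested.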

How the data were processed

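Methylated and unmethylated read counts per CpG were deposited by the authors after alignment with Bismark and Bowtie2 to mm9 carrying FVB variants, removal of duplicates and merging of strands, with a rounded percent that the authors added and that was not used. RNA-seq counts per gene were deposited by the authors from TopHat alignments of polyA RNA, counted with htseq-count without regard to strand.

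Percent methylation was summed over CpGs that each of the 12 libraries covered with 6 reads or more. Windows of 1 kb to either side of the start site and 1 kb tiles, each with at least 8 such CpGs, were fitted with edgeR 4.0.16 (R 4.3.3) on the methylated and unmethylated counts, with Benjamini-Hochberg adjustment over all windows or tiles. Windows were called at an adjusted p under 0.05, and tiles past the test were also read at a difference above 15 points. The test is on log odds and the direction is that of the difference in percent. RNA-seq counts were fitted with edgeR's quasi-likelihood test, and with DESeq2 1.42.0 as an alternative. Cluster spans and their 50 kb flanks were compared by exact permutation.

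The members, lists and tests were chosen with earlier results of these data known. Values were given for the 20 largest called windows, the 3 most and 3 least methylated, and the called tiles. Other windows and tiles were named after their values were seen. In RNA-seq the deviations of same-numbered wild-type and mutant livers correlated at 0.125, 0.226 and 0.409 over 14183 genes. The labels give no pairs, and the reported tests use genotype alone unless a block is named. With the number as a block 460 genes were called in place of 197, and 0 of the 8 Hox genes. Depth limits each percent to the reads behind it, and intervals of counts cover counting error only. Alternatives changed the read minimum, window and tile size, start site, filter, block, normalization and single libraries. Window and tile counts at an unadjusted p under 0.05 or under an alternative have no share of all features beside them. Gene positions came from GENCODE vM1 on NCBIM37. Values of 1 Hox gene and 1 cofactor gene, and some sequences, are not reported here. H3K4me1 ChIP-seq was not analysed here.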

Additional observations from a re-analysis of the deposited data

Results flagged for a closer look

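The genotype difference varied between tissues, by edgeR's quasi-likelihood test of the interaction, in the tile of the Hoxa7 homeobox exon at chr6:52165000-52165999 (adjusted p = 0.000150) and in the Hoxa7 tile at chr6:52167000-52167999 (adjusted p = 0.0307). In the first the mutants were higher by 17.2 points in E10.5 embryo and by 3.58 and 3.27 points in E14.5 and E18.5 liver. In the second they were higher by 4.17 points in the embryo, 1.34 in E14.5 liver, which did not pass the test, and 1.49 in E18.5 liver. Mutant minus wild-type methylation of the whole Hoxa span was 2.13 points in E10.5 embryo, 1.13 in E14.5 liver and -1.10 in E18.5 liver, with every mutant above every wild-type in the first 2 tissues and below in the third, and the difference between the tissues was not tested. Tissue and age cannot be told apart between embryo and liver, the embryos were all male and the E18.5 livers all female, and the part of sex was not tested. Groups of 2 or 3 libraries were too small to look for a library standing apart from its group.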

How the results depend on the processing

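Among the results followed through the alternatives, none past its test changed direction. The Hoxa7 tile at chr6:52167000-52167999 was not followed for embryo against E14.5 liver. Its difference there was -0.039 points over both genotypes, while the wild-type means rose from 0.191% to 1.56%. Among RNA-seq log2 fold changes that were not called, the sign turned with 1 library left out at Hoxa2 (-0.044 to 0.41), Hoxa3 (-0.39 to 0.22), Hoxa5 (-0.28 to 0.049), Hoxa9 (-0.061 to 0.44), Hoxb4 (-0.31 to 0.0038), Rad21 (-0.041 to 0.0090), Rbbp7 (-0.0073 to 0.037), Mllt3 (-0.040 to 0.10), Pknox1 (-0.012 to 0.060), Dnmt1 (-0.099 to 0.075), Dot1l (-0.12 to 0.021) and Smc1a (-0.060 to 0.019). With 500 bp to either side of the start site, called windows numbered 0 in E10.5 embryo, 4 on average and 1 between the liver stages, where wild-type libraries alone also gave 1. At a 10-point limit, called tiles numbered 6 in E10.5 embryo, 2 in E18.5 liver and 7 on average, and at 20 points 1 in E10.5 embryo, 0 in E14.5 liver, 0 on average, 26 between embryo and E14.5 liver and 15 between the liver stages. The number of Hox tiles tested was 311 in the main setting, 254 with at least 10 reads per CpG, 568 with 500 bp tiles and 393 with at least 4 CpGs. Counts under these settings are thus not on one scale. With at least 10 reads per CpG they numbered 1 in E10.5 embryo, 0 in E18.5 liver, 0 on average, 27 between embryo and E14.5 liver and 1 for the interaction. With 500 bp tiles they numbered 4, 3 on average, 80 and 42 between tissues and 1 for the interaction, and with at least 4 CpGs 4, 2 on average and 74 between embryo and E14.5 liver. The flank differences were 1.47 points at Hoxd as a mean over CpGs (adjusted exact p = 0.00926), 1.52 at Hoxc over 20 kb (adjusted exact p = 0.0648) and 1.80 at Hoxd over 100 kb (adjusted exact p = 0.0370). RNA-seq without a filter called 532 genes.

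With the replicate block, called windows numbered 10 in E10.5 embryo and 5 in E14.5 liver, 5 tiles passed the interaction, and 460 genes were called in RNA-seq. The shares of all windows and tiles in the blocked fit are not given here, so these window and tile counts have no background. Same-numbered bisulphite libraries correlated at 0.0689, 0.501 and -0.0318 in their deviations, 2 pairs per tissue. At E14.5 the number also marks sex, and in the other tissues the libraries share only a number. With the block 1 of the TALE cofactors, 1 mesenchymal and 2 megakaryocyte markers were called.

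Leaving out 1 library gave 0 to 5 called windows in E10.5 embryo and 1 to 4 between the liver stages, 0.550 to 0.899 points for the Hoxb span, 1.46 to 2.50 for the Hoxc flanks, 1.08 to 2.59 for the Hoxd flanks and 66 to 224 genes in RNA-seq. The refit of all tiles without each library was not run. Among the named windows Hoxb6 (1.21 points, adjusted p = 0.179) was no longer called between embryo and E14.5 liver at 10 reads, nor Hoxb8 (adjusted p = 0.300) and Hoxb13 (adjusted p = 0.0984) at 500 bp, nor Hoxb13 in wild-type libraries alone (adjusted p = 0.155). The Hoxc flank call was lost without 1 library in 6 of 12 cases. The causes were not tested. Low counts limit the RNA-seq of these genes. Chosen after seeing the data, leaving out 1 library gave -0.111 to 3.98 points for the genome-wide difference in E18.5 liver, and the macrophage sum was taken without Cd5l.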
